A study of Mus musculus with 6 samples.

Results

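A set of 34 genes that mark the lining of blood vessels was examined in TA muscles of mice, and 33 of them had a probe, out of 19057 genes on the array. The genes were taken by symbol from a list of endothelial receptors, junction proteins, transcription factors and surface proteins. Each gene was represented by its brightest probe, the one with the highest mean over the 6 arrays. A mean log2 signal of 7 served as the limit above background, which 27 of the 33 genes reached and 6 did not (Kdr, Sox17, Erg, Clec14a, S1pr1 and Acvrl1). Tspan7 had no probe with its symbol. The members nearest to the limit were Ptprb above it, at a mean of 7.11, and Sox17 below it, at 6.92. The samples were 3 TA muscles injected with AAV8-Prox1, an adeno-associated virus that carries the transcription factor Prox1, and 3 TA muscles injected with AAV8-NLS-mCherry, which carries a red fluorescent protein sent to the nucleus and served as control. The mice were male, of the strain C57Bl/6J and 3 months old, and both groups had received AAV8. The control vector went into the muscle of the other leg, but the labels do not say which muscles belonged to 1 mouse or whether different mice gave the 3 muscles of a group, and p-values measure only the spread between these muscles. The promoter of the vector was not given in the sources used here. The study describes fibres that overexpress Prox1, and whole muscle was measured, so that fibres, vessels and connective tissue all gave RNA.

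Endothelial cells line every blood vessel and, in skeletal muscle, form the dense net of capillaries around the fibres. They are told apart from other cells by adhesion proteins at their junctions, by the receptors for vascular endothelial growth factor (VEGF) and angiopoietin, and by transcription factors of the SOX and ETS families. In muscle capillaries they also carry the lipase that frees fatty acids from blood lipids. Slow, oxidative muscles have a denser capillary net than fast muscles.

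In the AAV8-Prox1 muscles 11 of the 33 measured endothelial genes were lower than in the AAV8-mCherry muscles, with limma's adjusted p under 0.05, none was higher and 22 did not pass. At an unadjusted p under 0.05 the count of higher genes was also 0. Over all genes of the array, 4.21% were lower by the same rule and 5.23% were higher. Among members above background the lower share was 11 of 27, or 40.7%, against 11.3% of the 6734 genes above background. The 11 genes were Sox18, Cd300lg, Nos3, Gpihbp1, Eng, Flt1, Tie1, Plvap, Robo4, Rasip1 and Ptprb, and their changes were moderate, at 1.81-fold lower for Sox18 and 1.17-fold lower for Ptprb. The log2 fold change was below 0 for 26 of the 27 members above background and 0.00 for Tek, whereas 48% of all genes above background were below 0. The median log2 fold change was -0.41 over these 27 members and -0.30 over all 33, and it was 0.01 over all genes above background. Every AAV8-Prox1 muscle lay below every control muscle for 18 of the 27 members, or 66.7%, against 20.6% of all genes above background. The members were chosen with earlier results of these data known, so these shares describe the list and are not an independent test. In whole muscle, fewer endothelial cells and less RNA per endothelial cell cannot be told apart. The count of 11 became 7 without AAV8-Prox1 replicate 1 (2.91% of all genes lower) and 7 without AAV8-mCherry replicate 3 (3.1%). It was 17 when only probes above background were tested, a setting that called 13.2% of all genes tested lower.

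**Figure D1:**
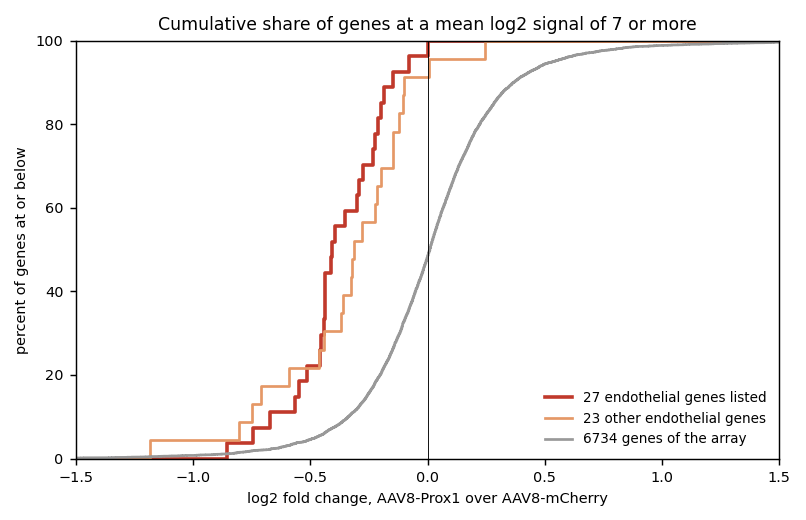
Cumulative share of genes (percent, vertical axis) at or below each log2 fold change of AAV8-Prox1 over AAV8-mCherry muscles (horizontal axis), for genes with a mean log2 signal of 7 or more. The curve of the 27 endothelial genes, with a median of -0.41, lies left of that of all 6734 genes, with a median of 0.01, and the curve of 23 other endothelial genes, with a median of -0.31, lies between them over most of its range.

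The values were log2 signals that had been made equal in distribution between the arrays, with a median of 6.61 in each of the 6 arrays and 10667 to 10672 probes at the limit or above. With 3 muscles a side, the smallest two-sided p of an exact permutation test is 0.1. The defining endothelial markers Pecam1 and Cdh5 were above background in all 6 arrays. This shows that endothelial RNA was present and not that each listed gene follows it. The fibre genes Ckm and Acta1 had log2 signals of 14.54 or more in every muscle. The probe of Prox1 was at background in both groups, at 6.54 and 6.58, so that the vector's own RNA was not detectable with it.

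Among the receptor tyrosine kinases, Flt1 and Tie1 fell. Flt1, a VEGF receptor that binds the ligand tightly and signals weakly, had log2 signals of 9.76, 9.67 and 9.72 in the AAV8-Prox1 muscles, against 9.99, 10.38 and 10.32 in the AAV8-mCherry muscles. The groups did not overlap, and Flt1 was 1.43-fold lower (log2 fold change -0.51, standard error 0.10, adjusted p = 0.0206). Tie1, an orphan partner of the angiopoietin receptor, had 7.15, 7.32 and 7.36 with AAV8-Prox1, against 7.56, 7.65 and 7.86 in controls. It was 1.33-fold lower (adjusted p = 0.0317). Both calls were lost in most fits with 1 array fewer. Of the 6 fits that leave out 1 array, Flt1 and Tie1 passed only in the fit without AAV8-mCherry replicate 1. They reached adjusted p-values of up to 0.0824 and 0.0931 in the others. Over these 6 fits the log2 fold change was -0.63 to -0.44 for Flt1 and -0.48 to -0.33 for Tie1.

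Tek, the angiopoietin receptor itself, had equal group means, with 8.02, 7.98 and 8.70 with AAV8-Prox1 and 8.22, 8.05 and 8.43 in controls. AAV8-Prox1 replicate 3 was the highest of all 6 muscles and the other AAV8-Prox1 muscles were the lowest. Its log2 fold change was -0.23 to 0.13 over the 6 fits without 1 array, and it passed in none of them (adjusted p of at least 0.398). Ptprb, the phosphatase of endothelial cells that restrains Tek, had 6.97, 6.99 and 7.04 with AAV8-Prox1, against 7.21, 7.24 and 7.22 in controls. It fell by 0.22 on the log2 scale (adjusted p = 0.00983) and passed in all 6 fits without 1 array, but only 1 of its 3 AAV8-Prox1 arrays reached the limit above background. Kdr, the main signalling receptor for VEGF, was at background with both of its probes, so its level could not be followed here.

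Eng, a co-receptor for ligands of the TGF-beta and BMP9 type on endothelial cells, had log2 signals of 7.70, 7.63 and 7.69 in the AAV8-Prox1 muscles, against 8.12, 8.27 and 8.28 in the AAV8-mCherry muscles. The muscles within each group lay close together and the groups far apart, and Eng was 1.46-fold lower (log2 fold change -0.55, standard error 0.05, adjusted p = 0.0011), with adjusted p-values of 0.00124 to 0.007 over the 6 fits without 1 array. The other receptor of this pathway on the list, Acvrl1, was at background, with a mean of 6.58 with AAV8-Prox1 and 6.60 in controls.

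The start regions of these receptors are shown because endothelial genes are known for ETS factors bound near their start sites. Whether ETS factors had a part in the changes was not tested. The 250 bases before the start site, from the RefSeq promoters of GRCm38.p6, were at hand for 15 of the 34 genes, in 20 windows. In the sequences below, written 5′ to 3′ in the direction of the gene, capitals mark the ETS-type hexamer AGGAAG or its reverse complement CTTCCT. Eng, Flt1 and Tie1 passed as lower and Tek is given as the receptor with no difference in mean. The windows are chr2:32646345-32646594 on the plus strand for Eng, chr5:147726012-147726261 on the minus strand for Flt1, chr4:118489850-118490099 on the minus strand for Tie1 and chr4:94739039-94739288 on the plus strand for Tek.
Eng: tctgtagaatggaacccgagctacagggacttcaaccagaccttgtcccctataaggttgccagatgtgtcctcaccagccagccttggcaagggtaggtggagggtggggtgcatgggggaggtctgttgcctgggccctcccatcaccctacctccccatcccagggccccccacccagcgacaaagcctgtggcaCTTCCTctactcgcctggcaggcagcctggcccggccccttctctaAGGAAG
Flt1: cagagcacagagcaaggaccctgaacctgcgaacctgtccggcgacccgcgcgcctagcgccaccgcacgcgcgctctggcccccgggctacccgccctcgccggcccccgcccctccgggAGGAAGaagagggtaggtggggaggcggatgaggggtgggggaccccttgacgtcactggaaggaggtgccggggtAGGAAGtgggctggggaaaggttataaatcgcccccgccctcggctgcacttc
Tie1: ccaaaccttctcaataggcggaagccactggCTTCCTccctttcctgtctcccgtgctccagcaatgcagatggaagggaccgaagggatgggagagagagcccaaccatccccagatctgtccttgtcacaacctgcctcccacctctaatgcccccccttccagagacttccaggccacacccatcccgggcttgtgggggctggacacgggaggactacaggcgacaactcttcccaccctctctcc
Tek: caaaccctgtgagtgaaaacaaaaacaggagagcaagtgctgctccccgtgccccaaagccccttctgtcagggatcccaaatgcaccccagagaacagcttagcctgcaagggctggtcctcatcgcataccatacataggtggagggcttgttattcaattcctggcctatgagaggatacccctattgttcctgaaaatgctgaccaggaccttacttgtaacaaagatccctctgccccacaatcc

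Eng held 2 matches, at 52 and 6 bases before the start site, Flt1 held 2, at 129 and 53 bases, Tie1 held 1, at 219 bases, and Tek held none. AGGAAG, on either strand, was found in 10 of the 15 member genes (66.7%), against 32.3% of the 27025 genes in the table. It was in the 5 lower members with a window (Eng, Flt1, Tie1, Rasip1 and Robo4) and in 5 of the 10 other members with one (Aqp1, Egfl7, Emcn, Erg and Ly6c1). Of the other motifs searched on both strands, CGGAAG, also of the ETS type, was found in 1 of 15 member genes, against 15.3% of all genes. The gene was Tie1, and the match is not marked above. ACAAT, which SOX factors bind, was found in 5 of 15 and in 30.9% of all genes, and the CCAAT box in 4 of 15 and in 37.5% of all genes. Matches to different motifs overlapped in 1 place in the member windows. A match is a run of letters and not a bound site, and genes with several windows had more chances to hold one.

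Of the 5 measured genes of the capillary surface and of lipid handling, 3 fell. Cd300lg, a receptor of capillary endothelium also called nepmucin, had log2 signals of 7.82, 8.07 and 7.91 with AAV8-Prox1, against 8.60, 8.75 and 8.69 in controls. It was 1.68-fold lower (log2 fold change -0.75, standard error 0.07, adjusted p = 0.00109). Gpihbp1, which carries lipoprotein lipase to the inner face of capillaries, had 8.76, 8.85 and 8.76 with AAV8-Prox1, against 9.24, 9.42 and 9.41 in controls. It was 1.48-fold lower (log2 fold change -0.57, standard error 0.06, adjusted p = 0.00155). Both genes passed in all 6 fits without 1 array, and a second probe of each also passed, at log2 fold changes of -0.41 and -0.76. Plvap, which forms the diaphragms of endothelial vesicles and pores, had 8.75, 8.70 and 8.65 with AAV8-Prox1, against 9.04, 8.95 and 9.17 in controls. It was 1.28-fold lower (adjusted p = 0.0139) and failed narrowly without AAV8-Prox1 replicate 2 (adjusted p = 0.0543).

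The water channel Aqp1 and the surface antigen Ly6c1 did not pass with their brightest probes. Aqp1 had 12.04, 12.44 and 12.18 with AAV8-Prox1, against 12.45, 12.70 and 12.70 in controls (log2 fold change -0.40, adjusted p = 0.0928). The groups did not overlap, but AAV8-Prox1 replicate 2 lay next to AAV8-mCherry replicate 1. The second of its 3 probes had overlapping groups and did not pass (log2 fold change -0.24, adjusted p = 0.179), and the dimmest fell by 0.44 on the log2 scale (adjusted p = 0.0106). The brightest passed without AAV8-Prox1 replicate 2 (adjusted p = 0.0341). Ly6c1 had 9.80, 10.24 and 10.12 with AAV8-Prox1 and 10.23, 10.14 and 10.35 in controls, with overlapping groups (adjusted p = 0.522). Ly6c1 has a near-identical neighbour gene, Ly6c2, which monocytes express, and whether its probe tells the pair apart was not tested.

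Sox18, a transcription factor of the endothelium that acts beside Sox17 in vessel growth, had the lowest log2 fold change of the 33 measured members. Its log2 signals were 7.98, 7.69 and 7.80 in the AAV8-Prox1 muscles, against 8.36, 8.71 and 8.97 in the AAV8-mCherry muscles. It was 1.81-fold lower (log2 fold change -0.86, standard error 0.15, adjusted p = 0.0146), and it failed without AAV8-Prox1 replicate 2 (adjusted p = 0.0607). The controls were spread more widely than the AAV8-Prox1 muscles, with SDs of 0.15 with AAV8-Prox1 and 0.31 in controls (n = 3 each). Ets1, a broadly used ETS factor that leukocytes also express, had 8.61, 8.53 and 8.44 with AAV8-Prox1, against 9.06, 8.55 and 9.29 in controls. AAV8-mCherry replicate 2 lay among the AAV8-Prox1 muscles, and Ets1 did not pass (log2 fold change -0.44, adjusted p = 0.239) except without that control (adjusted p = 0.00788). Sox17 and the ETS factor Erg were at background in both groups.

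**Figure D2:**
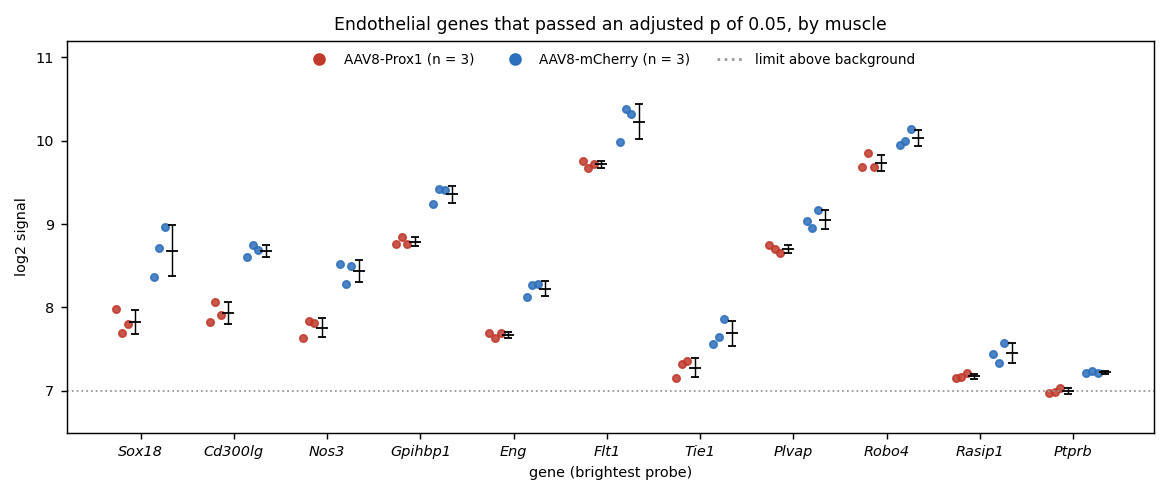
Log2 signal (vertical axis) of the 11 endothelial genes that passed an adjusted p of 0.05, each by its brightest probe, with 1 point per muscle (3 AAV8-Prox1 in red, 3 AAV8-mCherry in blue) and the mean ± SD in black beside the points. The dotted line marks the limit above background at 7, and in each gene the red points lie below the blue ones.

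Nos3, the nitric oxide synthase of endothelial cells, had log2 signals of 7.63, 7.84 and 7.81 with AAV8-Prox1, against 8.52, 8.28 and 8.50 in controls. It was 1.59-fold lower (log2 fold change -0.67, standard error 0.08, adjusted p = 0.00305) and passed in all 6 fits without 1 array. Its other probes above background had log2 fold changes of -0.38 (adjusted p = 0.0448) and -0.39 (adjusted p = 0.0682). Rasip1, which endothelial cells need to open and keep a lumen, had 7.15, 7.17 and 7.21 with AAV8-Prox1, against 7.44, 7.34 and 7.58 in controls. It was 1.21-fold lower (adjusted p = 0.0396), but of the 6 fits without 1 array it passed only in that without AAV8-mCherry replicate 2, with adjusted p-values of up to 0.128 in the others. Egfl7, a matrix protein secreted by endothelial cells and the host of a microRNA, had 11.26, 11.65 and 11.54 with AAV8-Prox1, against 11.97, 11.74 and 12.07 in controls. The groups did not overlap and the brightest probe did not pass (log2 fold change -0.44, adjusted p = 0.0741), whereas the second probe passed (log2 fold change -0.60, adjusted p = 0.0392). The brightest probe passed without AAV8-mCherry replicate 2 (adjusted p = 0.0465). Vwf, the von Willebrand factor that holds platelets to injured vessels, had 9.78, 9.81 and 9.58 with AAV8-Prox1 and 10.06, 9.78 and 10.23 in controls (log2 fold change -0.30, adjusted p = 0.239). Its groups overlapped through AAV8-mCherry replicate 2, without which it passed (adjusted p = 0.0417).

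The junction and adhesion proteins, 10 on the list, gave 1 call, and Clec14a, an endothelial lectin, was at background. That is 1 of 9 above background, near the 11.3% of all genes above background that were lower. Robo4, an endothelial receptor that steadies the vessel wall, had 9.68, 9.85 and 9.68 with AAV8-Prox1, against 9.95, 10.00 and 10.14 in controls. It was 1.23-fold lower (log2 fold change -0.29, adjusted p = 0.044), and of the 6 fits without 1 array it passed only in that without AAV8-Prox1 replicate 2, with adjusted p-values of up to 0.141 in the others. The other 8 above background had log2 fold changes of -0.46 to -0.15 and did not pass.

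The defining markers were among these. Pecam1, the adhesion protein CD31, had log2 signals of 8.35, 8.52 and 8.75 with AAV8-Prox1, against 8.90, 8.83 and 9.11 in controls. The groups did not overlap, and limma gave a log2 fold change of -0.41 ± 0.11 (standard error) with an adjusted p of 0.0839. It passed without AAV8-Prox1 replicate 3 (adjusted p = 0.0316). The second Pecam1 probe above background had 7.02, 7.24 and 7.13 with AAV8-Prox1 and 7.30, 7.20 and 7.43 in controls, with overlapping groups and a smaller log2 fold change of -0.18 (adjusted p = 0.288). Cdh5, the cadherin of endothelial junctions, had 8.05, 8.15 and 8.03 with AAV8-Prox1 and 8.19, 8.13 and 8.50 in controls, a log2 fold change of -0.20 ± 0.09 (standard error) that did not pass (adjusted p = 0.381). Its groups overlapped, and a second probe gave the same log2 fold change of -0.20 (adjusted p = 0.533).

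Of the other adhesion genes, Esam, an immunoglobulin protein of endothelial junctions and platelets, came closest to the threshold. It had 10.14, 10.47 and 10.17 with AAV8-Prox1, against 10.56, 10.70 and 10.88 in controls (log2 fold change -0.45, adjusted p = 0.0524), and it passed without AAV8-Prox1 replicate 2 (adjusted p = 0.0252) or AAV8-mCherry replicate 1 (adjusted p = 0.046). Mmrn2, the matrix ligand of Clec14a, ranged over 8.95 to 9.28 with AAV8-Prox1 and 9.40 to 9.88 in controls (log2 fold change -0.44, adjusted p = 0.13). Icam2, a leukocyte ligand of endothelial cells, ranged over 8.31 to 8.42 with AAV8-Prox1 and 8.51 to 9.05 in controls (log2 fold change -0.44, adjusted p = 0.0935). Neither overlapped between the groups, and Icam2 passed without AAV8-mCherry replicate 2 (adjusted p = 0.0087). Emcn, a sialomucin of veins and capillaries, ranged over 8.93 to 9.08 with AAV8-Prox1 and 8.95 to 9.44 in controls (log2 fold change -0.21, adjusted p = 0.471), and it too passed without that control (adjusted p = 0.0277). The tight junction protein Cldn5 had 8.69, 9.37 and 9.12 with AAV8-Prox1 and 9.30, 9.29 and 9.97 in controls, and the sialomucin Podxl had 7.54, 7.30 and 7.35 with AAV8-Prox1 and 7.20, 7.51 and 7.92 in controls. The groups of both overlapped (adjusted p = 0.39 and 0.799).

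Of the 3 G protein-coupled receptors and their partner proteins none passed. Ramp2, the partner that makes the calcitonin receptor-like receptor respond to adrenomedullin, had 8.96, 8.95 and 9.06 with AAV8-Prox1, against 9.09, 9.07 and 9.51 in controls (log2 fold change -0.23, adjusted p = 0.389). The groups lay next to each other without overlap. Aplnr, the receptor of apelin, had 7.12, 7.64 and 7.40 with AAV8-Prox1 and 7.57, 6.98 and 7.85 in controls, so that its lowest and its highest value were both in control muscles (adjusted p = 0.94). S1pr1, a receptor of sphingosine 1-phosphate, was at background.

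**Figure D3:**
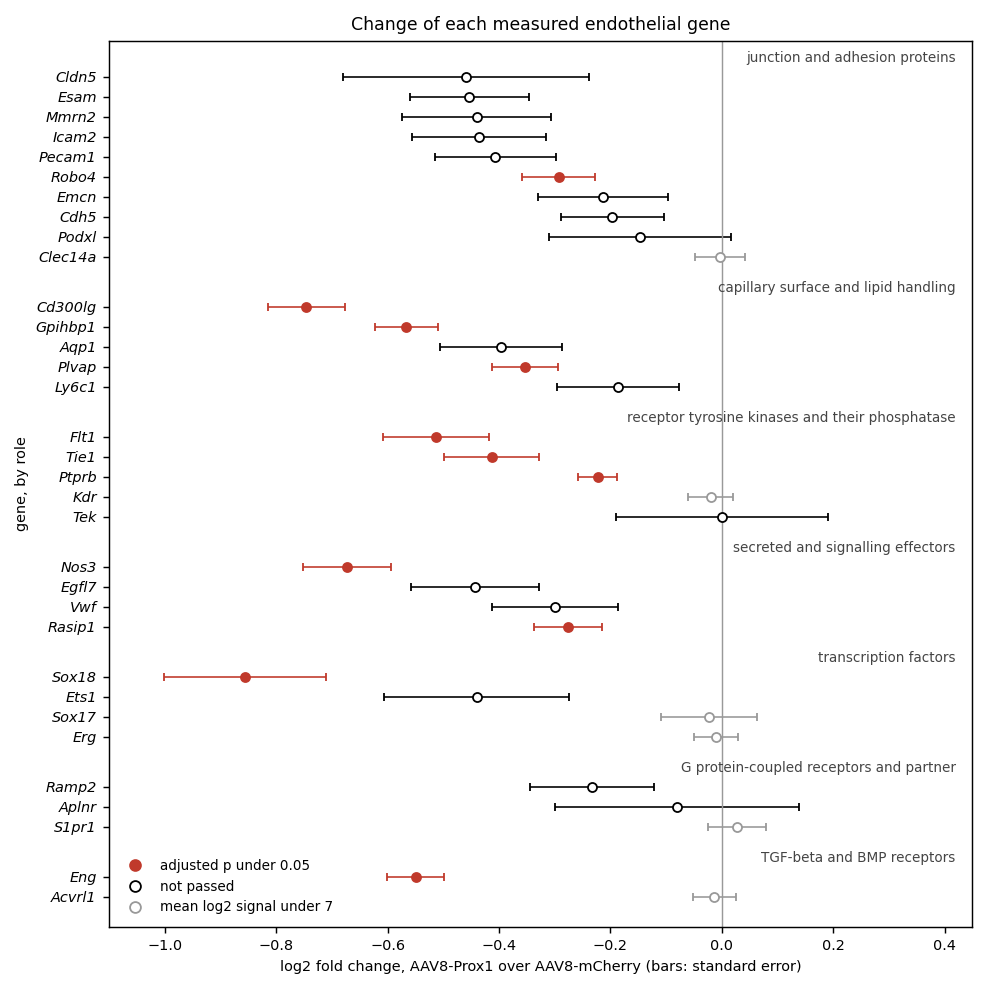
Log2 fold change of AAV8-Prox1 over AAV8-mCherry muscles (horizontal axis) for the 33 measured endothelial genes, grouped by role, with the standard error as bars. Filled red points passed an adjusted p of 0.05, open black points did not, and grey points mark the 6 genes with a mean log2 signal under 7; 26 of the 27 genes above background lie left of 0.

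The same genes were also seen through further probes. Of the 33 genes, 15 had several probes, 24 further probes in all. The 9 of these above background belonged to 7 genes, and all 9 had a log2 fold change below 0, at -0.76 to -0.18, with 5 called lower and none higher by limma. Probes of 1 gene share its RNA and are not replicates. The calls of such probes disagreed for 3 genes, Aqp1, Egfl7 and Nos3. When a gene's probes were averaged in place of taking the brightest, background probes included, Robo4 and Rasip1 no longer passed and Egfl7 and Aqp1 did.

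The muscles differed within their groups in a way that ran through many members. AAV8-mCherry replicate 3 was the highest control in 21 of the 27 members above background and AAV8-mCherry replicate 2 was the lowest control in 16. AAV8-Prox1 replicate 1 was the lowest of its group in 13. The mean log2 signal of the 27 members was 8.67, 8.79 and 8.77 in the AAV8-Prox1 muscles, against 9.05, 9.01 and 9.31 in the AAV8-mCherry muscles, without overlap. The median SD of a member was 0.11 with AAV8-Prox1 and 0.17 in controls. Each AAV8-Prox1 muscle was below the control mean in 25 to 27 of the 27 members.

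A list of 50 other endothelial genes, also written with earlier results of these data known, was set beside the members. It had 49 measured genes, with 10 lower, 1 higher and 38 that did not pass, against 4.21% lower and 5.23% higher of all genes. Of the 23 above background, 10 were lower, or 43.5%, against 11.3% of all genes above background. None of the 23 was higher, and their median log2 fold change was -0.31. The 4 lower genes with the smallest adjusted p were Tmem204 (log2 fold change -0.75, adjusted p = 0.00169), Arhgef15 (-0.59, adjusted p = 0.00224), Rgcc, a cell cycle regulator known from capillaries (-1.19, adjusted p = 0.00362), and Slc9a3r2, a PDZ scaffold protein (-0.80, adjusted p = 0.00559). Rgcc had 9.53, 9.72 and 9.89 with AAV8-Prox1, against 10.64, 11.21 and 10.85 in controls, a 2.28-fold fall. These 4 passed in all 6 fits without 1 array. The higher gene was Cd34, a sialomucin that endothelial cells share with fibroblast-like cells and satellite cells, at 7.14, 7.08 and 7.01 with AAV8-Prox1 and 6.88, 6.87 and 6.87 in controls. Since all its control arrays were under the limit, it was at least 1.05-fold higher (adjusted p = 0.0287), and it passed in 1 of the 6 fits without 1 array.

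Of 13 angiogenic ligands measured, 2 were lower and 1 was higher, against 4.21% and 5.23% of all genes. Vegfa, the ligand of Flt1 and Kdr that muscle fibres secrete, had log2 signals of 8.23, 8.26 and 8.25 with AAV8-Prox1, against 8.96, 9.54 and 9.21 in controls, and was 1.99-fold lower (log2 fold change -0.99, adjusted p = 0.0042). A second Vegfa probe had a log2 fold change of -0.98. Vegfd, which binds the receptor of lymphatic endothelium and, in humans, also KDR, had 7.82, 7.82 and 7.93 with AAV8-Prox1, against 6.86, 7.14 and 6.95 in controls. It was higher (log2 fold change 0.87, adjusted p = 0.000717), but only 1 of its 3 control arrays reached the limit above background, so that the size of the change is uncertain. In limma the calls of Vegfa and Vegfd held in all 6 fits without 1 array. Pdgfb, by which endothelial cells recruit pericytes, was lower (log2 fold change -0.38, adjusted p = 0.0392) and passed in 1 of these 6 fits. The angiopoietin Angpt2 did not pass (log2 fold change -0.23, adjusted p = 0.146), and Angpt1 was at background.

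Markers of other cell types were counted in the same fit. In it 4.21% of all genes were lower and 5.23% higher, or 11.3% and 12.9% of those above background. Of 11 pericyte and smooth muscle markers none was lower and 1 was higher, Des, which muscle fibres express strongly. Of the 9 above background 7 had a log2 fold change below 0, with a median of -0.11, and their mean level was 9.24 to 9.29 with AAV8-Prox1, against 9.27 to 9.37 in controls. Without Des, a step chosen after seeing the data, the mean level of the other 8 was 8.66 to 8.72 with AAV8-Prox1, against 8.76 to 8.89 in controls, so that their mean too lay below every control in every AAV8-Prox1 muscle, with a mean log2 fold change of -0.11. Rgs5, Cspg4 and Pdgfrb, which define pericytes, had log2 fold changes of -0.11, -0.06 and -0.16 and did not pass. At an unadjusted p under 0.05, 3 of the 9 were lower, against 23.2% of all genes above background. They were Acta2, the actin of smooth muscle (log2 fold change -0.26, adjusted p = 0.165), Notch3, a receptor of mural cells (-0.19, adjusted p = 0.169), and Myh11, a smooth muscle myosin (-0.17, adjusted p = 0.25). The third Acta2 probe was called lower (log2 fold change -0.51, adjusted p = 0.00368). The second (-0.26, adjusted p = 0.405) and the fourth (-0.30, adjusted p = 0.0533), also above background, did not pass. Of 14 macrophage and leukocyte markers 3 were higher and none was lower. The 3 were Mrc1, C1qc and Cd14, and Cd14 was under the limit on every array. Mrc1 passed in 1 and C1qc in 3 of the 6 fits without 1 array. The mean level of the 6 markers above background was 8.16 to 8.36 with AAV8-Prox1, against 7.55 to 8.01 in controls. The defining markers Ptprc and Csf1r were at background, and Cd68 had no probe with its symbol. Of 10 fibroblast markers 3 were higher and none was lower, with Mfap5 at a log2 fold change of 1.04, Lum at 0.81 and Cd248 at 0.41. Mfap5 passed in all 6 fits without 1 array, Lum in 4 and Cd248 in 1. The defining markers Pdgfra, Dcn and Col1a1 had log2 fold changes of 0.21, 0.53 and 0.36 and did not pass (adjusted p = 0.422, 0.0695 and 0.673). The mean level of the 7 fibroblast markers above background was 8.69 to 8.84 with AAV8-Prox1, against 7.99 to 8.42 in controls. Of the 8 skeletal fibre markers 4 fell, Casq1, Tnnt3, Myh4 and Mylpf, which belong to fast fibres. Myh4 passed in 2 of the 6 fits without 1 array. Pvalb and Mybpc2, fast-fibre genes too, did not pass (log2 fold changes -0.05 and -0.11). The mean level of the 8 markers was 13.01 to 13.23 with AAV8-Prox1, against 13.65 to 13.71 in controls. The part of these shifts in the endothelial result was not tested.

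**Figure D4:**
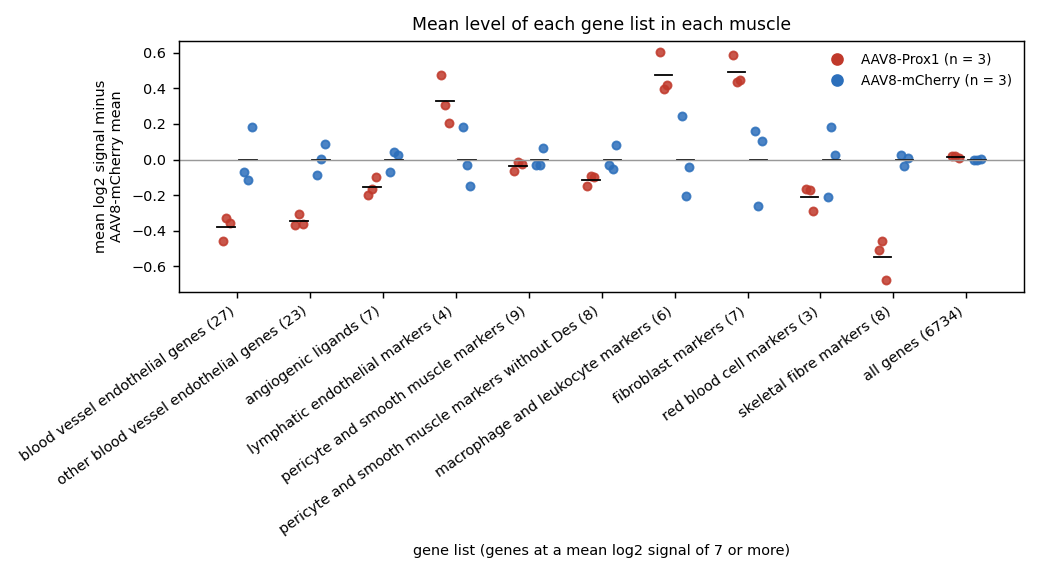
Mean log2 signal of each gene list in each muscle, minus the mean of the AAV8-mCherry muscles (vertical axis), over genes with a mean log2 signal of 7 or more (their number in parentheses), with 1 point per muscle and a bar at the group mean. Both endothelial lists lie below 0 in the 3 AAV8-Prox1 muscles (red), at -0.46 to -0.33 for the first list, and the macrophage and fibroblast lists lie above 0. The pericyte and smooth muscle list lies near 0 with Des and at -0.15 to -0.09 in the AAV8-Prox1 muscles without it.

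Of 5 red blood cell genes measured, which follow the blood left in the tissue, none passed, and none had an unadjusted p under 0.05 among the 3 above background. All 3 had a log2 fold change below 0, with a median of -0.23. Their mean level was 10.67 to 10.80 with AAV8-Prox1 and 10.76 to 11.15 in controls, with overlap. Hba-a1, a haemoglobin gene, ranged over 12.63 to 12.77 with AAV8-Prox1 and 12.63 to 13.18 in controls, with overlapping groups (log2 fold change -0.26, adjusted p = 0.406). AAV8-mCherry replicate 2 had the highest Hba-a1 signal, at 13.18. Its endothelial mean was 9.01, close to the 9.05 of AAV8-mCherry replicate 1, and 1 array does not show how blood and endothelial signals go together. The part of the blood left in the tissue in the endothelial result was not tested.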

How the data were processed

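RNA of 3 AAV8-Prox1 and 3 AAV8-mCherry TA muscles was analysed on Illumina Mouse WG-6 BeadChips, 1 array per muscle. The authors deposited log2 signals, processed in GenomeStudio and quantile-normalized in Chipster; whether background was subtracted is not given in the sources used here. Another deposited table, of raw signals, was left out because its 12 per-sample columns carry names found in no label, so background correction and other normalizations were not run.

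Of 45281 probes, 34885 carry 1 gene symbol, 18 several and 10378 none. All probes were fitted by lmFit and eBayes without a block (limma 3.58.1, R 4.3.3), and p-values were adjusted by Benjamini-Hochberg over all probes, with 0.05 as threshold. The brightest probe stood for its gene. A log2 signal of 7 was the limit above background, and folds against a group wholly under it are lower bounds. The 33 member probes kept their symbols when matched to a gene table by Entrez ID.

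The members and all lists were chosen with earlier results of these data known. All members are named; of the other lists, up to 4 genes per direction with the smallest adjusted p, beside defining markers. Angpt1, Angpt2, Hba-a1, Acta2, Notch3, Myh11, Reln, Ccl21a and Thy1 fall outside this rule and were chosen after their values were seen. The labels do not say whether equal replicate numbers mark muscles of 1 mouse. Deviations from the group means correlated at -0.13, 0.04 and -0.08 across probes between muscles of equal number. These values cannot settle it, since array noise can hide what 2 muscles of a mouse share. Alternatives covered the probe per gene, the replicate block, eBayes settings, each array left out, the filter, a minimum fold, recentring and the limit.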

Additional observations from a re-analysis of the deposited data

How the results depend on the processing

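The count of 11 lower endothelial genes became 17 when the test was limited to probes that reached a log2 signal of 7 on 3 arrays or more, which leaves fewer p-values to adjust over (13.2% of the genes tested were lower), and 6 with a minimum absolute log2 fold change of 0.5 (1.5% of all genes). With 1 array left out in each of 6 fits it was 7 to 13, and the median log2 fold change of members above background was -0.44 to -0.30 over these fits. In them the share of all genes called lower was 2.87% to 3.57%. The count of higher members was 0 in every setting run. Of the 11 genes, 5 (Eng, Cd300lg, Gpihbp1, Nos3 and Ptprb) passed in all 6 fits, 2 (Sox18 and Plvap) in 5 and 4 (Flt1, Tie1, Robo4 and Rasip1) in 1. With the replicate number as a block, 8 members were lower and 559 of all genes (2.93%), with the same fold changes; Flt1 (adjusted p = 0.065), Sox18 (0.0589), Plvap (0.0552), Rasip1 (0.0567) and Robo4 (0.101) no longer passed, and Pecam1 (0.0297) and Aqp1 (0.0332) did. Since the labels do not say whether equal numbers mark 1 mouse, these are calls of another fit and not smaller effects. With trend and robust estimation 15 members and 3.97% of all genes were lower, with Ptprb (0.0562) and Robo4 (0.106) not passing. The count was 11 with the mean of all probes (3.74% of all genes), 13 with the probe with the smallest p (4.78%), and 11 with recentred arrays, where the median of all genes above background moved by 0. Of the members, 28 had a mean of 6.8 or more and 22 one of 7.5 or more, with medians of -0.40 and -0.44. No call changed direction in these settings. Normalization from raw signals was not run, since no label names the raw columns. The number of arrays limits the precision, and signals near background understate changes, which touches Ptprb, Rasip1 and Tie1 and leaves 6 members without a usable level.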

Other observations

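Lymphatic endothelial cells, which Prox1 specifies in development, were looked at beside those of blood vessels. Of 8 lymphatic markers, none was lower and 1 was higher by limma, against 4.21% and 5.23% of all genes. The higher marker was Pdpn, at log2 signals of 9.37, 9.05 and 8.88 with AAV8-Prox1, against 8.36, 8.14 and 8.37 in controls. Its log2 fold change was 0.81 ± 0.12 (standard error, adjusted p = 0.00868). Pdpn is also made by fibroblasts. At an unadjusted p under 0.05, 2 of the 8 were higher, against 2219 of all 19057 genes. These were Pdpn and Thy1 (log2 fold change 0.35, adjusted p = 0.102), and Thy1 too is a fibroblast gene. Lyve1, Flt4, Mmrn1 and Prox1 itself were at background in both groups, so that changes of these 4 were not detectable with their probes. Reln, which lymphatic endothelium secretes, ranged over 7.53 to 7.61 with AAV8-Prox1 and 7.62 to 7.92 in controls, without overlap (log2 fold change -0.15, adjusted p = 0.416). Ccl21a, a chemokine of lymphatic vessels, had 7.87, 7.63 and 7.64 with AAV8-Prox1 and 7.67, 7.62 and 6.91 in controls, with overlapping groups (adjusted p = 0.542).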
